A study of Mus musculus with 2 samples.

Results

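The chemokine receptor genes Cx3cr1, Ccr2, Ccr1, Ccrl2 and Cxcr4 were followed by symbol through the myeloid cells of mouse retina in oxygen-induced retinopathy (OIR) and in room air (RA). They are 5 of the 31053 genes in both count matrices and 5 of the 23 chemokine receptor symbols there, and all 5 had unique molecular identifiers (UMIs, each standing for 1 captured RNA molecule) in both libraries. The series holds 1 single-cell library of each condition, made from sorted CD11b and F4/80 positive cells of the retinas of C57BL/6j mice at postnatal day 17. RA mice stayed in normal air, whereas OIR pups were kept in high oxygen, which removes part of the retinal capillaries, and were then returned to normal air, where the ischemic retina grows new vessels in tufts. The labels name no mutation or transgene, and the number of animals behind each library is not given in the sources used here. With 1 library per condition no difference was tested, and each interval below is an exact 95% interval that covers counting error only. In the same way, a condition cannot be told apart from its library, its sort or its dissociation.

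Chemokine receptors are membrane proteins that couple to inhibitory G proteins and steer leukocytes along gradients of chemokines. CX3CR1 binds fractalkine, a ligand displayed by neurons and endothelium, and is a classical mark of microglia and of patrolling monocytes. CCR2 binds CCL2, CCL7 and CCL12 and takes inflammatory monocytes out of the bone marrow and into tissue, and CCR1 binds CCL3, CCL5 and their relatives. CXCR4 binds CXCL12 and retains leukocytes in the marrow. CCRL2 does not signal as a chemokine receptor. It binds chemerin and presents it to neighboring cells.

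On the GRCm38.p6 assembly, the patch release of the mm10 build named in the submitters' processing notes, Cx3cr1 lies at chr9:120048683-120068296 on the minus strand. Ccrl2 at chr9:111054834-111057518 (minus strand), Ccr1 at chr9:123962126-123968692 (minus strand) and Ccr2 at chr9:124101918-124109140 (plus strand) share that chromosome, whereas Cxcr4 lies at chr1:128588199-128592299 on the minus strand. The promoters of Cx3cr1, Ccrl2 and Cxcr4 are shown because the first was lower and the second higher in OIR microglia and the third is a textbook target of hypoxia. Each line gives the 250 bases before the RefSeq start, 5′ to 3′ on the gene's strand, at chr9:120068297-120068546, chr9:111057519-111057768 (the most upstream of 3 starts) and chr1:128592300-128592549. Capitals mark matches to the hypoxia response core (ACGTG or GCGTG, both strands) or to the NF-kB consensus (both strands).
Cx3cr1: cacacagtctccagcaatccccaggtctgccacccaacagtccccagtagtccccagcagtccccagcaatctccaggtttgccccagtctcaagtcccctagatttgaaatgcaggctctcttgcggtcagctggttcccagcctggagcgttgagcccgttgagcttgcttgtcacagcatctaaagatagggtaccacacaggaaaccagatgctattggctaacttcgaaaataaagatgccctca
Ccrl2: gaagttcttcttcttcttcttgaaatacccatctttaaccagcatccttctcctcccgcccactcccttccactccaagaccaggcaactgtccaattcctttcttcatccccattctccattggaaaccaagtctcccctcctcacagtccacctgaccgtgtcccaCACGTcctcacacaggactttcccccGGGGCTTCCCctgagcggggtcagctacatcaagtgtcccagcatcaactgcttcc
Cxcr4: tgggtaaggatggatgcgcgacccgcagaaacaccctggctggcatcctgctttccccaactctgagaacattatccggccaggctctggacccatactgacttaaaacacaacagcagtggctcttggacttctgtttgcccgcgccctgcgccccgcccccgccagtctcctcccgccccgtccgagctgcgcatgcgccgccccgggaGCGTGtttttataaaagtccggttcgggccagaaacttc
No match to either motif was found in the Cx3cr1 window. The Ccrl2 window held CACGT, the hypoxia core read on the other strand, at bases -82 to -78 from the start, and the NF-kB match GGGGCTTCCC at -56 to -47. The Cxcr4 window held GCGTG at -39 to -35. Of the windows not shown, that of Ccr1 also held both motifs, CACGC at -25 to -21 and GGGAGGCTCC at -74 to -65. That of Ccr2, at chr9:124101933-124102182, held neither. It lies inside the gene span given above, before a RefSeq start further downstream. Of 32851 mouse promoters of this length, 38.6% held the hypoxia core and 7.25% the NF-kB consensus, so a core match is common and says nothing by itself about binding.

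The RA library held 1449 cells and 12810892 UMIs (median 8607 per cell) and the OIR library 1259 cells and 9835402 UMIs (median 5254), with 0 barcodes in common. After filtering, 972 RA and 929 OIR cells fell in clusters with Ptprc (CD45) transcripts, and these were named only from marker lists that hold none of the 5 receptors. The microglia-like cells (713 RA, 379 OIR) formed a cluster led by Arl5c, Tnf and Tnfaip2 (400 RA, 262 OIR) and a cluster led by the stress genes Rrad, Ddit3 and Sertad1 (313 RA, 117 OIR). Neither had a gene of the microglia list among its 10 leading genes, and the first had Csf1 of the activated microglia list, so each is also given on its own. Activated microglia-like cells (76 RA, 200 OIR) formed a cluster with Fabp5 and Cst7 among its leading genes and a smaller one with Fabp5 and Igf1. They were shallow, with median UMIs of 3280 and 2436, and poor in the nuclear RNA Malat1 (1725 and 400 CPM). Their activated microglia list summed to 1588 CPM in RA and 6184 CPM in OIR, against 275 and 1638 CPM in microglia. In the larger cluster, led by Cryba4, the list summed to 859 CPM in 69 RA cells and 3422 CPM in 138 OIR cells. The pooled level of the RA cells in this cluster was thus below that of OIR microglia by this list. In the smaller cluster, led by Gclm, it summed to 6702 CPM in 7 RA cells and 10856 CPM in 62 OIR cells. Dividing cells (19 RA, 110 OIR) carried Top2a and were mixed differently in the libraries. Their neutrophil markers summed to 5633 CPM in RA and 76.2 CPM in OIR, and their monocyte markers to 1253 and 199 CPM. Most of the RA monocyte marker UMIs (267) were in 1 cell. Macrophage-like cells (88 RA, 138 OIR) carried Mrc1, Lyve1, Pf4 and Folr2, and monocyte-like cells (52 RA, 92 OIR) carried Plac8, S100a4 and Napsa. The sort was not pure, and 189 RA and 154 OIR rods, which should lack all 5 receptors, served as a background for RNA from outside the cell. Rods held 0 UMIs of every receptor except for 1 Cx3cr1 UMI in 1 OIR rod, although the rods were shallower than the myeloid cells and only 35 RA and 17 OIR rods reached 2000 UMIs. A count of 0 over all rods of a library allows a share of cells with a UMI of up to 1.59% in RA and 1.95% in OIR.

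**Figure D1:**
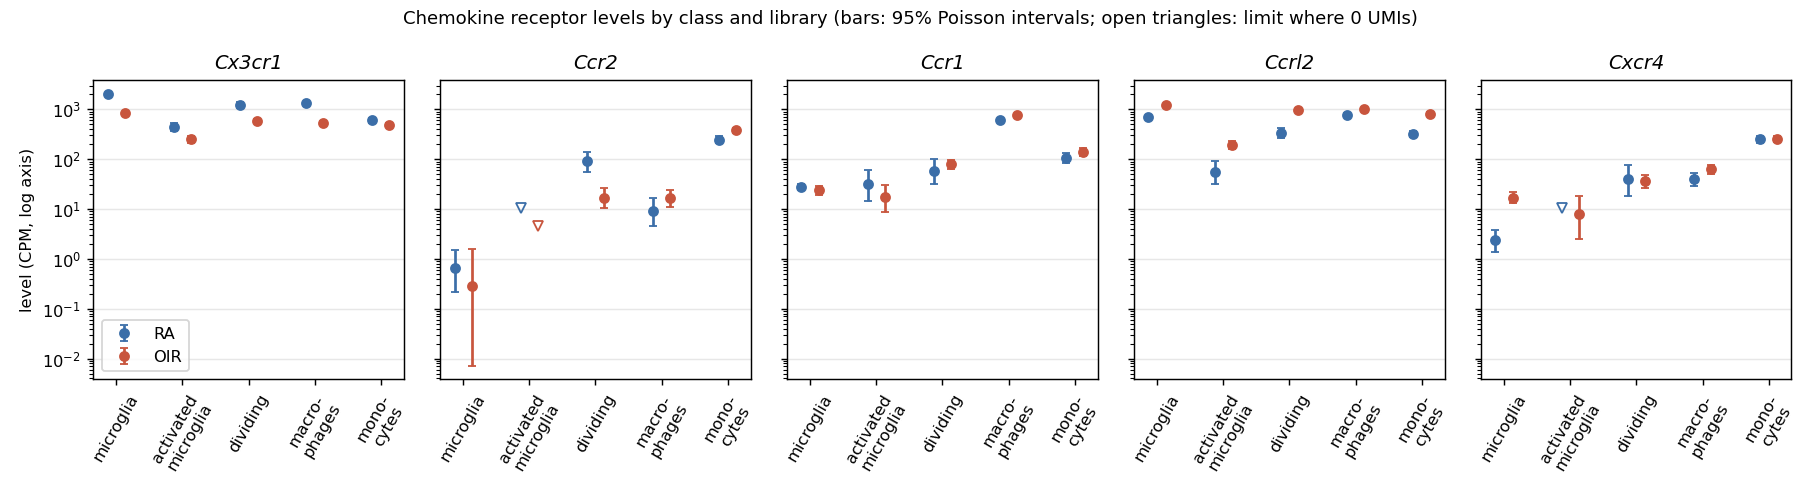
Levels of the 5 receptors in the myeloid classes, in UMIs per 1000000 UMIs of the class (CPM), with exact 95% Poisson intervals and 1 point per class and library. Cx3cr1 is highest in RA microglia (2069 CPM), Ccr2 in OIR monocytes (382 CPM), Ccr1 in OIR macrophages (758 CPM), Ccrl2 in OIR microglia (1214 CPM) and Cxcr4 in monocytes (251 and 257 CPM).

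Each receptor had its own place among the classes. Cx3cr1 was highest in RA microglia, Ccr2 and Cxcr4 in monocytes, and Ccr1 in macrophages, whereas Ccrl2 was at 690 CPM or more in microglia and macrophages of both libraries and in OIR dividing cells and OIR monocytes. Summed over each class, Cx3cr1 was lower and Ccrl2 higher in OIR in all 5 classes, and Ccr2 was higher in OIR monocytes. Within ranges of Malat1 share, given in part with each receptor, the direction held throughout for Cx3cr1 and Ccrl2 in microglia. It varied for Cx3cr1 in macrophages, monocytes and dividing cells, and for Ccr1 in these classes and in microglia. It also varied for Ccr2 in macrophages and monocytes. For Ccrl2 and Cxcr4 it varied in macrophages and, counting ranges with few cells, in monocytes. For Cx3cr1 in macrophages the change of direction rests on the range below 0.5%, where RA and OIR cells were unlike in Malat1 (196 and 2883 CPM). In microglia 1 of the 3 members that reached 20 CPM was past 2-fold (Cx3cr1, lower), beside 8.79% of 5778 genes past 2-fold in either direction. Without integration of the libraries this Cx3cr1 ratio was inside 2-fold (-0.92). In monocytes 1 of 5 was past 2-fold (Ccrl2, higher), beside 15.8% of 6258 genes, in macrophages 1 of 4 (Cx3cr1, lower), beside 14.6% of 6151 genes, in dividing cells 3 of 5 (Ccrl2 higher, Cx3cr1 and Ccr2 lower), beside 24.8% of 6711 genes, and in activated microglia 1 of 3 (Ccrl2, higher), beside 34.6% of 5305 genes. The ratios in dividing cells compare cells with unlike levels of neutrophil and monocyte markers.

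Cx3cr1, the fractalkine receptor, stood at 2069 CPM (15838 UMIs) in RA microglia and at 838 CPM (2960 UMIs) in OIR microglia. The level was thus 2.47-fold lower in OIR, a log2 ratio of -1.30 (-1.36 to -1.25). Both microglial clusters showed the difference: 2021 against 806 CPM in the Arl5c-led cluster (log2 ratio -1.33) and 2139 against 921 CPM in the Rrad-led cluster (-1.22). RA and OIR cells of these clusters were not alike in activation. The activated microglia list summed to 312 CPM in RA and 1801 CPM in OIR in the first, and to 220 and 1218 CPM in the second. Without integration of the libraries the ratio in microglia was -0.92 (-1.07 to -0.76), inside 2-fold. In the Arl5c-led cluster 10.3% and in the Rrad-led cluster 9.29% of genes were past 2-fold. The difference was spread over cells. With every cell thinned to 2000 UMIs, the median microglial cell held 4 Cx3cr1 UMIs in RA and 1 in OIR, and the mean was 4.24 and 1.62. The share of thinned microglia with any Cx3cr1 UMI was 95.5% in RA and 75.9% in OIR (99.9% and 95.5% before thinning), and the share with at least 4 UMIs was 51.6% and 11.5%.

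**Figure D2:**
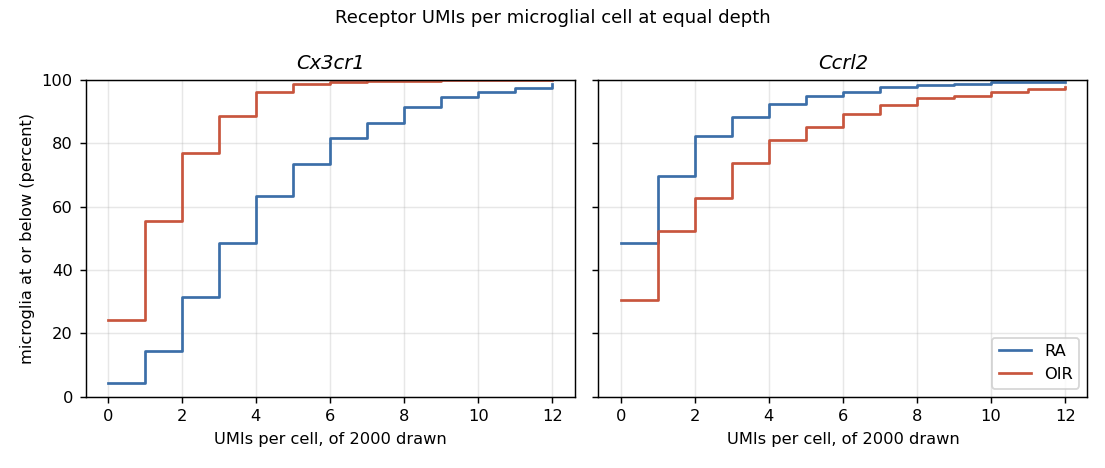
Cumulative share of microglia (y axis, percent of cells) by their number of Cx3cr1 and Ccrl2 UMIs (x axis) after thinning every cell to 2000 UMIs, 711 RA and 374 OIR cells. The OIR curve of Cx3cr1 lies to the left of the RA curve, with a mean of 1.62 against 4.24 UMIs per cell, and that of Ccrl2 lies to the right.

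In each library the level of Cx3cr1 was lower in the other 4 classes than in microglia. Macrophages had 1335 CPM in RA and 539 CPM in OIR (log2 ratio -1.31, -1.43 to -1.19), a difference of the same size as in microglia. Dividing cells had 1231 and 597 CPM (-1.04, -1.25 to -0.84). Of the 272 RA UMIs, 56 came from 1 cell, and without the richest cell of each library the ratio was inside 2-fold (-0.93, -1.15 to -0.70). Activated microglia had 451 and 251 CPM (-0.85, -1.19 to -0.50), and their clusters were mixed differently in the libraries, with 69 RA and 138 OIR cells in the cluster led by Cryba4 and 7 and 62 in the cluster led by Gclm. Within the Cryba4-led cluster Cx3cr1 was at 456 and 324 CPM (-0.49), and within the Gclm-led cluster at 421 CPM (15 UMIs) and 126 CPM (30 UMIs). Monocytes had 605 and 483 CPM (-0.32, -0.53 to -0.12), and without the cell richest in Cx3cr1 in each library the ratio was -0.20, with an interval (-0.41 to 0.01) that includes no difference. Ordered by level, RA microglia came first, followed by RA macrophages and RA dividing cells, whose intervals overlapped, and by OIR microglia. The next 5, RA monocytes, OIR dividing cells, OIR macrophages, OIR monocytes and RA activated microglia, each overlapped with their neighbor, and OIR activated microglia came last. Of all Cx3cr1 UMIs in CD45-positive cells, microglia held 86.3% in RA and 57.8% in OIR, with 73.4% and 40.8% of the cells.

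Other transcripts moved with Cx3cr1. Malat1, a nuclear RNA whose share falls in cells with little nuclear RNA, was lower in OIR microglia by a log2 ratio of -1.34. It was lower in activated microglia (-2.11), macrophages (-1.47), dividing cells (-1.69) and monocytes (-1.18) too. Neat1, also a nuclear RNA, was not lower in OIR microglia, at 1483 CPM in RA and 1536 CPM in OIR (log2 ratio 0.05). Its log2 ratio was 0.07 in dividing cells, -0.12 in monocytes and -0.74 in macrophages. Activated microglia held 1 Neat1 UMI in RA and 8 in OIR. Activated microglia were not divided by Malat1 share. Within ranges of Malat1 share the log2 ratio of Cx3cr1 in microglia ran from -2.19 to -1.14, and a link between the transcripts was not tested. At 0.5 to 1% Malat1 the Cx3cr1 level was 2070 CPM in 54 RA cells against 853 CPM in 149 OIR cells (log2 ratio -1.28). At 1 to 2% it was 2036 CPM in 365 RA cells against 927 CPM in 100 OIR cells (-1.14), a smaller difference than over all microglia. Below 0.5% Malat1 it was 1934 CPM in 6 RA cells against 788 CPM in 115 OIR cells (-1.30), and at 2% or more, 2123 CPM in 288 RA cells against 466 CPM in 15 OIR cells (-2.19). Macrophages, monocytes and dividing cells had few cells per range and did not keep 1 direction. In macrophages the ratio was 0.63 (-0.16 to 1.56) below 0.5% Malat1, -0.04 (-0.44 to 0.40) at 0.5 to 1%, -1.36 at 1 to 2% and -1.18 at 2% or more, with 6 RA cells in the second range and 1 OIR cell in the last. The macrophages below 0.5% were not alike in Malat1, at 196 CPM in 14 RA cells and 2883 CPM in 71 OIR cells. In monocytes it was -0.90 (-1.31 to -0.48) at 0.5 to 1%, with 6 RA cells, and 0.58 (0.20 to 0.96) at 1 to 2%, and the outer ranges, with 2 RA monocytes below 0.5% and 4 OIR monocytes at 2% or more, were not compared. In dividing cells it was 1.96 (0.40 to 4.24) below 0.5% and 1.99 (0.93 to 3.32) at 0.5 to 1%, with 6 and 3 RA cells, and -1.13 at 1 to 2%. Other microglial genes differed by less in OIR microglia: P2ry12, a purine receptor of process motility, had a log2 ratio of -0.64 and Tmem119 one of -0.40. The summed level of the 11-gene microglia list was 16777 CPM in RA and 18543 CPM in OIR microglia. It was 6262 and 7138 CPM in macrophages and 3391 and 6034 CPM in monocytes, against 102 and 98 CPM in rods, and the part of microglial RNA in the Cx3cr1 level of those classes was not tested.

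**Figure D3:**
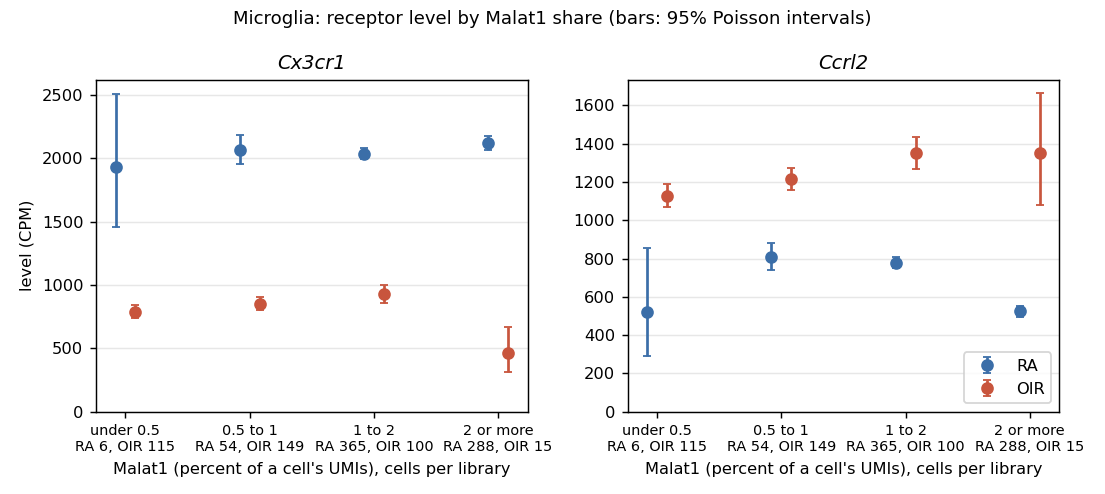
Cx3cr1 and Ccrl2 levels in microglia (CPM, exact 95% Poisson intervals) by the share of a cell's UMIs from Malat1, with RA and OIR side by side. In all 4 ranges Cx3cr1 is lower in OIR (788 against 1934 CPM in the lowest range, 466 against 2123 CPM in the highest) and Ccrl2 is higher.

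Ccr2, the receptor for CCL2, was a monocyte transcript in these libraries. Monocytes had 245 CPM in RA (155 UMIs) and 382 CPM in OIR (346 UMIs), a log2 ratio of 0.64 (0.36 to 0.92), and 0.76 without the cell richest in Ccr2 in each library. By Malat1 share the difference did not hold: at 0.5 to 1% Ccr2 was lower in OIR (719 CPM in 6 RA cells, 452 CPM in 47 OIR cells, log2 ratio -0.67, -1.09 to -0.23), and at 1 to 2% the ratio was -0.03 (-0.54 to 0.48). A Ccr2 UMI was found in 24 of 52 RA monocytes (46.2%, exact binomial interval 32.2 to 60.5%) and in 55 of 92 OIR monocytes (59.8%, 49.0 to 69.9%), intervals that overlap. At 2000 UMIs per cell the shares were 21.6% and 44.8%. Microglia held 5 UMIs in 5 of 713 RA cells and 1 UMI in 1 of 379 OIR cells, and activated microglia held none, which allows a share of up to 3.95% of RA and 1.50% of OIR cells with a UMI. The level in monocytes was thus above that in microglia by a log2 ratio of 8.55 (7.30 to 10.19) in RA and 10.40 (7.91 to 15.70) in OIR, the latter against a single UMI and 6.02 to 6.93 under 6 other groupings or filters of the cells. Monocytes were 5.35% of the RA and 9.90% of the OIR CD45-positive cells and held 81.2% and 88.0% of their Ccr2 UMIs. Over all CD45-positive cells Ccr2 was at 19.0 CPM in RA and 50.2 CPM in OIR, a log2 ratio of 1.40 (1.15 to 1.66), larger than the ratio within monocytes while the share of monocytes was higher too. Of genes in these pooled cells 12.4% were past 2-fold, and 3 of the 5 receptors were, Ccr2 and Cxcr4 higher and Cx3cr1 lower.

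Few cells outside the monocytes carried Ccr2. In macrophages 2 RA cells held 11 UMIs and 5 OIR cells held 26 UMIs (9.29 and 16.7 CPM), and 2 RA and 2 OIR cells among them had 107 to 159 UMIs of the class II gene H2-Aa. In dividing cells the level was 90.5 CPM in RA and 16.9 CPM in OIR, and each rested on 20 UMIs in very few cells. All 20 RA UMIs were in 1 cell with 53 Ly6c2, 67 Chil3 and 36 Mki67 UMIs, no Cx3cr1, and 267 UMIs of the monocyte list against 4 of the microglia list. The 20 OIR UMIs were in 2 cells, with 11 and 9 Ccr2 UMIs, 12 and 11 Cx3cr1 UMIs and 0 Ly6c2 UMIs. These cells also held 15 and 10 UMIs of the monocyte gene Plac8. Their monocyte list had 57 and 38 UMIs, against 273 and 38 of the microglia list. The RA cell thus carried Ccr2 together with markers of inflammatory monocytes and of division.

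Ccr1, a receptor for CCL3 and CCL5, was highest in macrophages. It stood at 605 CPM in RA (716 UMIs, 80 of 88 cells with a UMI) and 758 CPM in OIR (1180 UMIs, 108 of 138 cells), a log2 ratio of 0.32 (0.19 to 0.46). At 0.5 to 1% Malat1 the ratio was 0.38 (-0.02 to 0.80) and at 1 to 2% it was 0.96 (0.70 to 1.22). Below 0.5%, where RA and OIR cells were unlike in Malat1, it was 0.996 (0.20 to 1.92). At 2% or more it was -0.19 (-1.02 to 0.53), with 30 RA cells and 1 OIR cell. Microglia had 28.2 and 23.8 CPM (-0.25, -0.63 to 0.12), so that the level in macrophages was 21.4-fold higher in RA and 31.9-fold higher in OIR. Beside this 13.4% and 12.3% of genes were past 2-fold between macrophages and microglia, and 2 of 4 receptors were in each condition, Ccr1 and Cxcr4. The larger macrophage cluster, led by Bmp2, Lyve1 and Mrc1, had 618 and 785 CPM, and the cluster led by Cela1, shallow and nearly without Malat1, had 283 and 387 CPM. Monocytes had 107 and 141 CPM (0.39, -0.04 to 0.84) and dividing cells 58.8 and 80.5 CPM. Over the Malat1 ranges the Ccr1 ratio ran from -1.01 to 0.58 in microglia and from -1.31 to 0.46 in dividing cells. In monocytes it was -0.23 at 0.5 to 1% and 0.46 at 1 to 2%. The intervals of these values include no difference. Macrophages held 716 of the 1023 Ccr1 UMIs of RA and 1180 of the 1505 of OIR CD45-positive cells.

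Ccrl2, the chemerin-binding receptor, was higher in OIR in all 5 classes when summed over the class. In microglia it stood at 690 CPM in RA (5281 UMIs) and 1214 CPM in OIR (4289 UMIs), 1.76-fold higher, a log2 ratio of 0.82 (0.76 to 0.87). Thinned to 2000 UMIs, 51.5% of RA and 69.5% of OIR microglia held a Ccrl2 UMI, and 11.7% and 26.2% held at least 4. The Arl5c-led cluster had 967 and 1463 CPM and the Rrad-led cluster 286 and 571 CPM, so that the gap between the microglial clusters of 1 library (log2 ratio 1.76 in RA, 1.36 in OIR) was wider than the gap between the libraries within either cluster (0.60 and 0.997). Dividing cells had 339 and 966 CPM (1.51, 1.17 to 1.87), activated microglia 56.0 and 193 CPM (1.79, 1.03 to 2.64) and monocytes 327 and 819 CPM (1.32, 1.10 to 1.55). Macrophages had 779 and 1002 CPM (0.36, 0.24 to 0.48). From the lowest to the highest range of Malat1 share the macrophage ratio was 3.39, 0.04, -0.59 (-0.89 to -0.30) and 1.29, so that it was lower in OIR at 1 to 2% Malat1, whereas in microglia it was 1.12, 0.59, 0.79 and 1.37. The macrophage value of 3.39 rests on 5 RA UMIs, in cells unlike the OIR cells in Malat1 (196 and 2883 CPM). In monocytes it was 0.45 (0.02 to 0.91) at 0.5 to 1% and 1.89 (1.52 to 2.28) at 1 to 2%.

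Although Cx3cr1 was lower and Ccrl2 higher in OIR microglia, the transcripts were not exclusive within cells. Thinned RA microglia with 0 Ccrl2 UMIs held 4.40 Cx3cr1 UMIs per cell, those with 1 or 2 held 4.17 and those with 3 or more held 3.95. In OIR microglia the same values were 1.60, 1.60 and 1.65. The Cx3cr1 level of a microglial cell thus differed far more by library than by its Ccrl2 count.

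Cxcr4, the CXCL12 receptor, was highest in monocytes, at 251 CPM in RA (159 UMIs) and 257 CPM in OIR (233 UMIs), with a log2 ratio of 0.03 (-0.26 to 0.33). The share of monocytes with a UMI was 86.5% in RA and 68.5% in OIR, and 58.8% and 39.1% after thinning. A smaller share of OIR monocytes thus held a UMI, although the unthinned intervals (74.2 to 94.4% and 58.0 to 77.8%) overlap. Macrophages had 39.7 and 62.9 CPM (0.66, 0.15 to 1.20), where 29 of the 98 OIR UMIs came from 1 cell. Without the richest cell of each library the ratio was 0.50 (-0.09 to 1.12), and it was -1.29 at 0.5 to 1% Malat1 and 1.60 at 1 to 2%. In microglia Cxcr4 had 18 UMIs in 17 RA cells and 60 UMIs in 24 OIR cells, 17 of them in 1 cell. The level of 2.35 CPM in RA and 17.0 CPM in OIR stayed under the 20 CPM at which genes were compared, and the log2 ratio of 2.85 (2.07 to 3.70) was 2.54 without the richest cells and 0.0301 (-5.33 to 2.65) when the libraries were not integrated. Against microglia, Cxcr4 was 107-fold higher in RA monocytes and 15.1-fold higher in OIR monocytes. Between monocytes and microglia 28.8% of genes in RA and 19.1% in OIR were past 2-fold, and all 5 receptors were in RA and 3 of 5 in OIR. Ccr2, Ccr1 and Cxcr4 were higher in monocytes in both libraries, whereas Cx3cr1 and Ccrl2 were past 2-fold lower in RA monocytes.

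**Figure D4:**
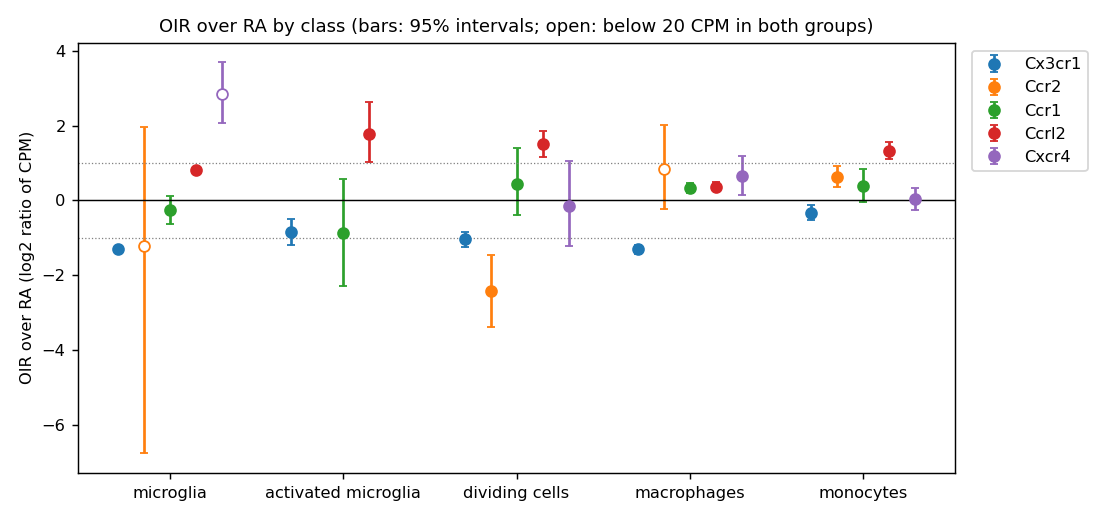
OIR over RA for each receptor and myeloid class as a log2 ratio of CPM with its exact 95% interval from counts. Summed over each class, Cx3cr1 lies below 0 in every class, from -1.31 in macrophages to -0.32 in monocytes (0.58 at 1 to 2% Malat1). Its direction varies by Malat1 share in macrophages, monocytes and dividing cells. Ccrl2 lies above 0 in every class, from 0.36 in macrophages (-0.59 at 1 to 2% Malat1) to 1.79 in activated microglia. Ratios of Ccr2 and Cxcr4 outside monocytes rest on few UMIs.

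Cx3cr1 and Ccr2 are often used as a pair of reporters to tell microglia from infiltrating monocytes, and in these cells the pair overlapped within monocytes. Both transcripts were found in 18 of 52 RA monocytes (34.6%, 22.0 to 49.1%) and in 41 of 92 OIR monocytes (44.6%, 34.2 to 55.3%), and over both libraries in 59 of 144 (41.0%, 32.9 to 49.5%). The product of the separate shares was 36.4% in RA, 42.2% in OIR and 40.4% over both libraries, each within the interval of the measured share. Cx3cr1 without Ccr2 was found in 23 RA and 24 OIR monocytes, Ccr2 without Cx3cr1 in 6 and 14, and neither in 5 and 13. Detection moved with depth. Monocytes with both transcripts had median UMIs of 14157 in RA and 10544 in OIR, and those with neither had 2828 and 4231. At 2000 UMIs per cell both transcripts were found in 11.8% of 51 RA and 20.7% of 87 OIR monocytes. Among monocytes with a Ccr2 UMI, 75.0% in RA and 74.5% in OIR also held Cx3cr1, and among those without, 82.1% and 64.9% did.

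**Figure D5:**
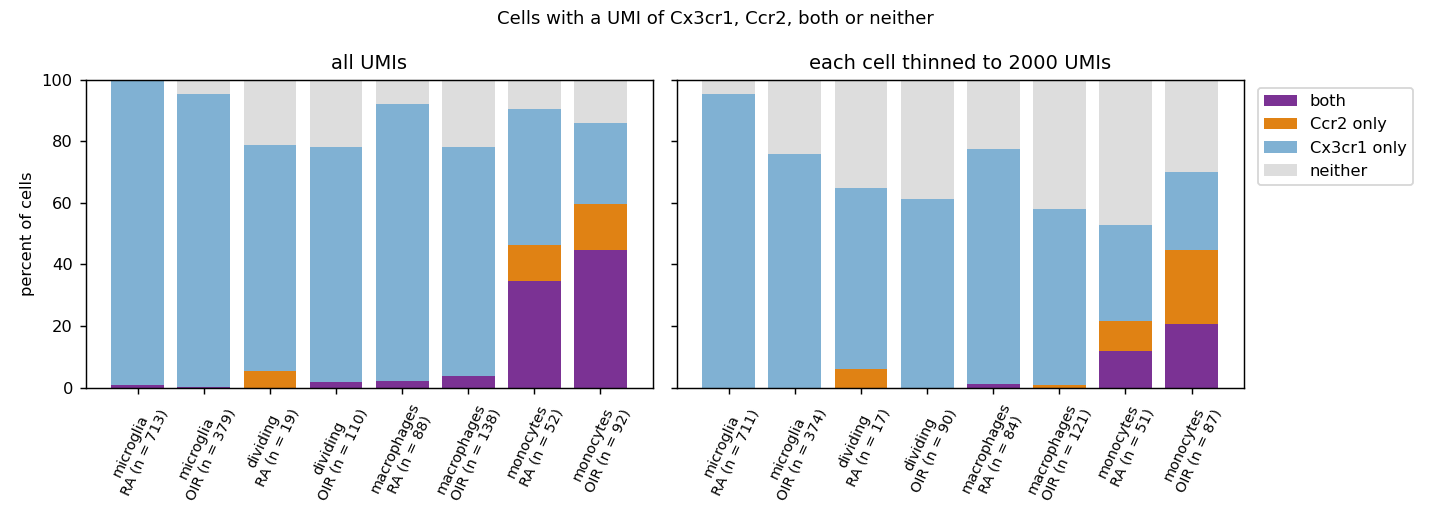
Cells with Cx3cr1 only, with both Cx3cr1 and Ccr2, with Ccr2 only and with neither, as a percent of the cells of each class and library. Cells with both make up 34.6% of RA and 44.6% of OIR monocytes, whereas nearly all microglia hold Cx3cr1 alone.

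Outside the monocytes co-detection was rare. It was found in 5 of 713 RA and 1 of 379 OIR microglia, each with a single Ccr2 UMI, and in none of them after thinning. It was found in 2 of 88 RA and 5 of 138 OIR macrophages and in 0 of 19 RA and 2 of 110 OIR dividing cells. Over all CD45-positive cells 25 of 972 RA and 49 of 929 OIR cells held both, most of them monocytes.

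Some marker genes differed in level between monocytes grouped by receptor detection. In RA, those with Cx3cr1 alone had 530 CPM of Ace, 346 CPM of Spn and 298 CPM of Treml4, genes of patrolling, non-classical monocytes. Those with both receptors had 273, 112 and 127 CPM, and the 6 cells with Ccr2 alone had 99.8, 42.8 and 128 CPM. Treml4 was thus alike in cells with both receptors and in those with Ccr2 alone. These levels are of RA cells only. The class II gene H2-Aa ran the other way, with 151 CPM in RA cells with Cx3cr1 alone, 2836 CPM in those with both and 8257 CPM in those with Ccr2 alone, and 0, 765 and 3406 CPM in the same order in OIR. Ly6c2, a mark of classical monocytes, was at 74 CPM in RA cells with Cx3cr1 alone and 412 CPM in those with both, and in OIR at 21 CPM and 101 CPM, with 412 CPM in OIR cells with Ccr2 alone. Fn1, the fibronectin gene, was at 15 CPM in RA cells with Cx3cr1 alone and 471 CPM in those with both. Grouped by these markers and not by receptor, the 28 RA and 51 OIR monocytes with Ace, Spn or Treml4 but no Ly6c2 had 877 and 570 CPM of Cx3cr1 and 83.9 and 280 CPM of Ccr2. The 2 RA and 8 OIR cells with Ly6c2 and none of the 3 had 59.5 and 167 CPM of Cx3cr1 and 387 and 750 CPM of Ccr2. The remaining monocytes, with markers of both kinds or of neither, are in neither group. Cells with Cx3cr1 alone also held more microglial RNA, with 5371 CPM of the microglia list in RA and 8588 CPM in OIR, against 214 and 532 CPM in those with Ccr2 alone, and the part of this RNA in their Cx3cr1 level was not tested. Markers of dendritic cells summed to 231 CPM in RA and 212 CPM in OIR monocytes, and those of neutrophils to 1880 and 436 CPM. Those of T or NK cells summed to 1.58 CPM in RA and 97.1 CPM in OIR monocytes.

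Of the 18 other chemokine receptors, Ccr7 and Cxcr2 were at 20 CPM or more in monocytes. Ccr7, which guides cells to lymphatics, was at 26.9 CPM in RA (17 UMIs) and 141 CPM in OIR (128 UMIs), a log2 ratio of 2.39 (1.66 to 3.22). T or NK cell markers were higher in OIR monocytes too, and the part of such RNA in the Ccr7 level was not tested. Cxcr2, a neutrophil receptor for CXCL1 and CXCL2, was at 31.6 CPM in RA (20 UMIs) and 8.83 CPM in OIR (8 UMIs). Neutrophil markers were higher in RA monocytes too, and the part of such RNA in the Cxcr2 level was not tested. Among the 11 other chemoattractant receptors, 8 reached 20 CPM in microglia and 1 of them was past 2-fold, beside 8.79% of 5778 genes. This was C5ar1, the complement C5a receptor, at 350 CPM in RA and 758 CPM in OIR (log2 ratio 1.12, 1.04 to 1.20). C5ar1 was higher in OIR monocytes too, at 204 and 436 CPM (1.10), and within 2-fold in macrophages, at 580 and 768 CPM (0.41). In monocytes it was again the 1 receptor past 2-fold, of 10 that reached the level, beside 15.8% of 6258 genes. In macrophages none of 8 was, beside 14.6% of 6151 genes.

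Of the genes that carry or end the receptors' signal, 13 of the 16 in the files reached 20 CPM in microglia. Of these 1 was past 2-fold, beside 8.79% of 5778 genes. Rgs1, which shortens signalling by G proteins, was at 213 CPM in RA and 451 CPM in OIR microglia (log2 ratio 1.08, 0.98 to 1.18) and at 155 and 537 CPM in monocytes (1.80, 1.48 to 2.12), whereas in macrophages it was at 863 and 453 CPM (-0.93, -1.07 to -0.79). Gng5, a G protein gamma subunit, was lower in OIR in microglia (493 and 249 CPM, -0.98), macrophages (540 and 266 CPM, -1.02) and monocytes (702 and 285 CPM, -1.30). In macrophages it was the 1 gene of 13 past 2-fold, beside 14.6% of 6151 genes. In monocytes 2 of 15 were higher (Rgs1 and Rgs10) and 1 was lower (Gng5), beside 15.8% of 6258 genes past 2-fold in either direction.

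The ligands of these receptors were made in part by the same cells. Ccl2, the main CCR2 ligand, was at 1169 CPM in RA and 2244 CPM in OIR microglia (log2 ratio 0.94, 0.90 to 0.98), and at 5267 and 6040 CPM in macrophages. Ccl12, another CCR2 ligand, ran the other way, at 1344 and 749 CPM in microglia (-0.84) and at 3068 and 959 CPM in macrophages (-1.68, -1.77 to -1.59). Of the 14 ligands and sheddases, 11 reached 20 CPM in microglia and none of these was past 2-fold, beside 8.79% of 5778 genes. In macrophages 2 of 11 were, Ccl12 and Ccl4, both lower, beside 14.6% of 6151 genes. In monocytes 1 of 11 was, beside 15.8% of 6258 genes. This was Ccl5, at 34.8 CPM in RA and 188 CPM in OIR (2.43, 1.79 to 3.14). The part of T or NK cell RNA in this Ccl5 level was not tested.

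The genes whose level ran most closely with each receptor were sought over 14 points, the myeloid clusters of each library with at least 20 cells, among 5370 genes with at least 50 CPM in 1 of them. The points share 2 libraries and differ in depth and Malat1, so the correlations are descriptions. Cx3cr1 ran most closely with Zfhx3 (Pearson r = 0.981), Mef2c (0.979), a transcription factor of microglia, and Ttc28 (0.966). Ccr2 ran with Plac8 (0.981), Thbd (0.981) and Plbd1 (0.981), and Ccr1 with F13a1 (0.948), Lyve1 (0.943) and Mtss1 (0.942). Of these, Plac8, Plbd1, F13a1 and Lyve1 were markers by which the classes were named. Ccrl2 ran with Arl5c (0.939) and Maff (0.915), and Cxcr4 with Nr4a2 (0.940), Iqgap1 (0.938) and Sik1 (0.935). Among the receptors themselves, Ccr2 and Cxcr4 ran together (0.910), whereas Cx3cr1 ran with neither Ccr2 (-0.05) nor Ccr1 (-0.07).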

How the data were processed

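Retinal cells gated as live, CD11b and F4/80 positive were made into 3′ single-cell libraries (version 3 reagents), 1 for RA and 1 for OIR. In the deposited matrices each value is a raw UMI count of a gene in a cell. Per the file headers they come from Cell Ranger 3.1.0, mapped to mm10, and the submitters' notes also name Seurat 4.0. The 5 receptors and all gene lists were chosen with earlier results of these data known.

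Filters on mitochondrial UMIs (at most 20%) and on number of genes (top 2% removed) left 1295 RA and 1179 OIR cells. Libraries were integrated by canonical correlation in Seurat 5.3.0 (R 4.3.3) on 3000 anchor genes less all chemokine receptors, with 30 dimensions, 20 neighbors and resolution 0.5. Clusters with a Ptprc UMI in at least 10% of cells were clustered again. Names came from the marker list best represented (at least 2 genes) in the 10 leading genes of a cluster, or else microglia where that list's median log2 ratio was highest and at least 0.25. A cluster shallow for its libraries could not be named microglia in the second way. This rule was set after the clusters were seen. Scrublet in scanpy 1.11.5 called 4 RA and 2 OIR cells doublets, which were kept.

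Counts were summed per class and library and scaled to 1000000 UMIs (CPM). Intervals are exact, Poisson for levels, binomial for shares and conditional binomial for ratios. A UMI count of 0 was given a limit of 3. Genes with 20 CPM or more in either group were compared and those past 2-fold counted; there are no replicates and no tests. Thinning drew 2000 UMIs per cell, and shallower cells were left out (2 RA and 5 OIR microglia, 1 and 5 monocytes, 4 and 17 macrophages). Scripts were tested on simulated data. Named genes were the 5 receptors, the listed receptors, signalling genes and ligands, other chemokine receptors at 20 CPM or more, and the 3 genes most like each receptor; a few genes that met this rule are not reported here. Promoters are from RefSeq on GRCm38.p6, in which all 5 receptors were matched by symbol. Alternatives in integration, anchor genes, resolution, filters, scale and thinning were tried, and some were added after seeing the data (Malat1 ranges, activated microglia taken in, richest cells left out).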

Additional observations from a re-analysis of the deposited data

Results flagged for a closer look

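Ccr2 was lower in OIR than in RA dividing cells (log2 ratio -2.42) and higher in OIR monocytes (0.64). The opposite directions were not tested, and the value in dividing cells rests on 1 RA and 2 OIR cells with a Ccr2 UMI.

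Receptor UMIs were also found in cells outside the myeloid classes compared above. In the cluster led by Mir124a-1hg, which had too few cells with a Ptprc UMI to be counted as CD45-positive (123 RA, 89 OIR cells), Cx3cr1 was at 70.8 CPM in RA and 8.56 CPM in OIR. The RA value came from 63 UMIs in 5 cells and the OIR value from 5 UMIs in 4 cells. Ccr1 there was at 16.9 CPM in RA (15 UMIs in 1 cell) and 10.3 CPM in OIR (6 UMIs in 1 cell), and Ccrl2 at 7.86 CPM (7 UMIs in 1 cell) and 6.85 CPM (4 UMIs in 4 cells). The CD45-positive cluster led by Gm26778 (24 RA, 10 OIR cells) took no name because it was shallow (median 2808.5 UMIs). Its microglia list summed to 26656 CPM in RA and 20791 CPM in OIR. It was counted in the sums over all CD45-positive cells and, for its RA cells, in the correlations. In this cluster Cx3cr1 was at 2140 CPM in RA and 1335 CPM in OIR, and Ccrl2 at 398 and 421 CPM. Ccr1 was at 492 CPM in its OIR cells, from 7 UMIs in 4 cells.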

How the results depend on the processing

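Of 85 values recomputed under alternatives, 65 moved by less than their counting error, 20 moved by more and 0 changed sign. The 10 co-detection shares among them are percentages and could not change sign. Cxcr4 in microglia without integration kept its sign only at 0.0301 (-5.33 to 2.65). The log2 ratio of Cx3cr1 in OIR over RA microglia (-1.30) was -0.92 without integration, -1.39 without mitochondrial and ribosomal genes in the total, -1.22 in cells with 0.5 to 2% Malat1 (where Malat1 still differed, at 14473 CPM in RA and 9197 CPM in OIR), -1.43 with activated microglia taken in and -1.39 after thinning. For Ccrl2 (0.82) these values were 0.73 without mitochondrial and ribosomal genes, 0.69 by Malat1 range, 0.66 with activated microglia and 0.93 after thinning, and 0.89 as a mean over cells. Without integration Cxcr4 in microglia (2.85) was 0.0301 (-5.33 to 2.65) and Ccr1 in OIR macrophages over microglia (4.99) was 4.42. Most OIR microglia then fell in an activated microglia cluster, and the cause was not tested. Ccr2 in OIR monocytes over microglia (10.40) rests on 1 microglial UMI. It was 6.77 without integration, 6.93 with all anchor genes, 6.02 with a CD45 limit of 25%, 6.92 with a mitochondrial limit of 10%, 6.88 in cells of at least 2000 UMIs, 6.66 without called doublets and, as a lower bound against the floor of 3 UMIs, 6.65 after thinning. The cause was not tested. Co-detection in monocytes (41.0%) was 17.4% after thinning. With 1 library per condition no spread between animals is known, and Ccr2 and Cxcr4 outside monocytes rest on too few UMIs for a firm ratio. No paired analysis was possible because each condition has 1 library.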
